A study of Bos taurus with 3 samples.

Results

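The genes described here are those of antioxidant defence, glutathione metabolism and metal binding, 48 genes listed by symbol. A probe set was taken for a gene when the platform annotation gave it that gene as its only symbol. Of the 48 genes, 40 were measured in this way, among 9155 genes with a named probe set in the whole series. The 40 genes were read by 52 probe sets, and the probe set with the highest mean over the arrays stood for its gene. GPX8, TXNIP, GLRX, GSTA1, GSTM1, GSTP1, MT1E and CBR1 were not analysed here.

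Cells that respire produce superoxide, which superoxide dismutases turn into hydrogen peroxide. Catalase splits the peroxide directly, while glutathione peroxidases and peroxiredoxins reduce it with electrons from glutathione or thioredoxin, which are kept reduced with NADPH. Many of the genes are induced by the transcription factor NRF2 (gene NFE2L2), which its partner KEAP1 holds back until oxidants or electrophiles are present, while metallothioneins and ferritins bind zinc, copper and iron. In the ovary these systems are known from granulosa, luteal and stromal cells, where steroid synthesis and ovulation are accompanied by oxidant production.

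The arrays came from 3 Bos taurus cultures. GREL (Gonadal Ridge Epithelial-Like) cells are polygonal cells grown from dispersed fetal ovaries, and 2 isolates were hybridized, labelled 130 days of gestation. Isolate 1 has a slightly younger age in the methods, and the isolates were clonally enriched. They were compared with a lone culture of fibroblasts, grown from medullar stroma of adult ovary and labelled as over 1 year of age. The series' design text speaks of fetal ovaries for every culture. All cells were dispersed with collagenase, in the methods at a higher concentration for the adult stroma. With no agent named in the labels, all were grown at 39°C in medium with 5% fetal calf serum to 70% confluence. RNA of each culture was read on 1 Affymetrix GeneChip Bovine Genome Array. Cell type, developmental age, donor, tissue region, clonal enrichment, collagenase concentration and array cannot be told apart in this design. In cultures measured in bulk, fewer cells of a type and less RNA per cell cannot be told apart either.

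Pairs of GREL values are given in the order isolate 1, isolate 2. Values are log2 expression after RMA and quantile normalization, deposited in steps of 0.1, so that a difference of 1.0 is 2-fold. The array values carry no detection calls. The 42 measured genes of other organs, such as pituitary, liver and muscle, therefore served as a background. Their 95th percentile, called the background level here, was 8.005 on the fibroblast array, 7.53 on that of GREL isolate 1 and 7.37 on that of isolate 2. Strong readings of POMC, PRL and ALB set this level, so their 90th percentile (5.99, 6.12 and 5.93 in the same order) is given beside it as the lower background level. A gene under either level may still be expressed, and its fold is uncertain.

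The labels were checked against markers. KRT19, a keratin of simple epithelia, had 7.1 in the fibroblast culture, with 11.3 and 11.6 in the GREL pair, while KRT8, KRT7, CDH1 and EPCAM lay under the lower background level on every array. KRT18 was above the background level on every array, at 10.4 in the fibroblasts, 11.4 in isolate 1 and 11.8 in isolate 2. The summed log2 level of the 6 epithelial markers was 26.5 in the fibroblast culture, 38.6 in isolate 1 and 36.2 in isolate 2. This sum includes the values of KRT8, KRT7, CDH1 and EPCAM under that level. CDH1 read 3.6 in the fibroblasts, 4.7 in isolate 1 and 3.2 in isolate 2. That of 9 fibroblast and stroma markers was 83.5 in the fibroblasts, 72.0 in isolate 1 and 66.3 in isolate 2. COL1A2 and DCN, both made by stromal cells, were above the background level in the isolates too (COL1A2 at 11.5 and 10.5, DCN at 10.8 and 10.1). Of the 9 stroma markers 8 read lower in both isolates, 2 of them by over 3-fold. These were PDGFRA (8.3 in the fibroblasts against 6.1 and 5.5) and TCF21 (7.4 against 3.4 and 3.2), both under the lower background level in the isolates. All 5 granulosa markers, all 5 endothelial markers and all 5 blood markers lay under the lower background level on every array, FOXL2 among them. Of 4 smooth muscle markers 3 lay above it on every array, and the 2 measured germ cell markers below it. The part of any cell mixture in the differences below was not tested.

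Of the 40 genes 5 were at least 2-fold apart from the fibroblasts in both isolates. SOD2, above the background level on every array, was lower by over 2-fold. MGST1 was higher by over 3-fold, with the fibroblasts under the lower background level and both isolates above it. The other 3 lay under the lower background level on every array, which leaves their folds uncertain: SOD3 was lower by over 3-fold at its brighter probe set, SRXN1 lower and HMOX2 higher by over 2-fold. Among probe sets above the background level on at least 1 array, 0 genes of the set were over 3-fold higher and 0 over 3-fold lower. The remaining 35 measured genes did not differ by 2-fold in the same direction in both isolates. No gene of the set passed limma, which gave adjusted p-values from 0.182 (SOD3) to 1 with the spread taken from the 2 GREL isolates.

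Read against the whole array, the share of the set past each fold lay near that of all genes. Over 3-fold higher in both isolates was 1 of the 40 genes, beside 2.38% of all 9155 genes, and over 3-fold lower was also 1 of the 40, beside 2.38%. At least 2-fold higher were 2 of the 40 (7.26% of all genes), and at least 2-fold lower were 3 of the 40 (5.77%). Both isolates lay above the fibroblasts in 14 genes of the set (41.6% of all genes) and below them in 15 (33.5%). The median log2 difference, mean of the isolates minus fibroblasts, was -0.05 for the set and 0.05 for all genes. The median size of the difference was 0.35 in both. Limma called 0 probe sets higher and 0 lower out of 24016 (0% each). At an unadjusted p under 0.05 it gave 3 genes of the set higher and 4 lower, beside 12.8% and 11.1% of all genes. The set was brighter than most genes: 26 of its 40 genes (65.0%) lay above the lower background level on every array, against 23.05% of all genes.

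**Figure D1:**
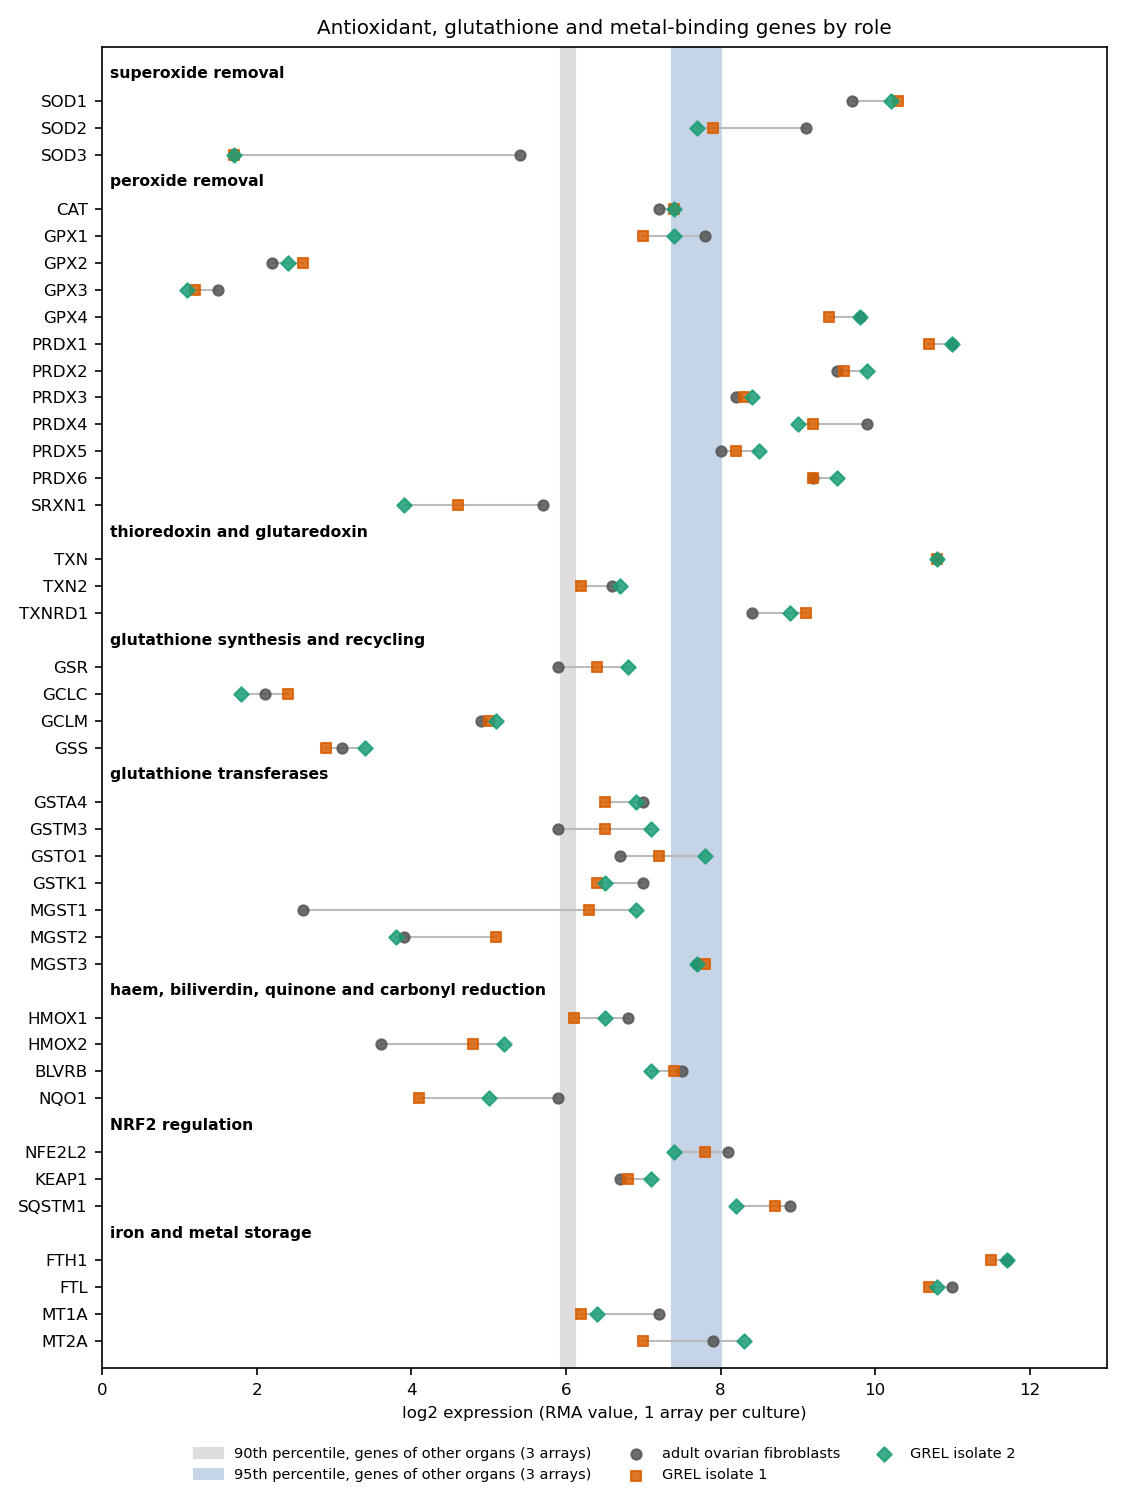
Log2 expression (RMA values on the horizontal axis, each from a lone array) for the 40 measured genes, grouped by role, with circles for the fibroblast culture, squares for isolate 1 and diamonds for isolate 2, and with the range over the 3 arrays of the 2 background levels as vertical bands. Most genes have the 3 symbols close together, while MGST1 (2.6 against 6.3 and 6.9) and SOD3 (5.4 against 1.7 and 1.7) spread widely.

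The superoxide dismutases differed from each other in direction. SOD1, the cytosolic copper and zinc enzyme, showed 9.7 in adult fibroblasts versus 10.3 and 10.2 in GREL cells. Both isolates were higher, by a mean of 0.55 (standard error, SE, 0.07 and adjusted p = 0.200 in limma). SOD2, the manganese enzyme of mitochondria, read 9.1 in the fibroblast culture against 7.9 and 7.7 in GREL cells. The fibroblast value was 2.3-fold and 2.64-fold higher, a mean difference of -1.30 (limma SE 0.14 and adjusted p = 0.200), and the values of all 3 cultures lay above the background level. SOD3, the enzyme secreted into the matrix, read 5.4 in the fibroblast culture against 1.7 in each GREL isolate. The deposited values differed by -3.70 (13-fold, limma SE 0.03, adjusted p = 0.182), but all 3 lay under the lower background level, so the size is uncertain. A second, dimmer probe set of SOD3 had 2.3 in the fibroblast culture, with 2.6 and 2.5 in the GREL pair, so the wide difference of SOD3 rests on 1 of its 2 probe sets. The mean over both probe sets was a difference of -1.73.

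Of the 12 measured enzymes that remove peroxide, 9 had a mean difference smaller than 0.5, as did 59.5% of all genes. Catalase (CAT), the peroxisomal enzyme, read 7.2 in the fibroblast culture against 7.4 in each GREL isolate. GPX4, which reduces lipid peroxides in membranes, showed 9.8 in adult fibroblasts versus 9.4 and 9.8 in GREL cells, so that isolate 2 equalled the fibroblasts. GPX1, the general cytosolic glutathione peroxidase, read 7.8 in the fibroblast culture against 7.0 and 7.4 in GREL cells, lower in both by a mean of 0.60 on the log2 scale (limma SE 0.28, adjusted p = 0.392). GPX2, known from gut epithelium, and the plasma enzyme GPX3 lay at 2.6 or less on every array, far under the lower background level.

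The 6 peroxiredoxins, thiol peroxidases, were all above the lower background level on every array. At the brightest probe set of each, PRDX4, the member of the endoplasmic reticulum, was the peroxiredoxin with the widest difference. It read 9.9 in the fibroblast culture against 9.2 and 9.0 in GREL cells. Dimmer probe sets of PRDX3 and PRDX6, given below, differed more widely. The mean difference of PRDX4, -0.80 (limma SE 0.14 and adjusted p = 0.241), was larger in size than the gap of 0.2 between the isolates. PRDX1, a cytosolic enzyme, had 11 in the fibroblast culture, with 10.7 and 11 in the GREL pair. PRDX2, also cytosolic, read 9.5 in the fibroblast culture against 9.6 and 9.9 in GREL cells. Isolate 2 equalled the fibroblasts in PRDX1, and both isolates were higher in PRDX2. PRDX5 showed 8.0 in adult fibroblasts versus 8.2 and 8.5 in GREL cells. SRXN1, sulfiredoxin, which restores over-oxidized peroxiredoxins, read 5.7 in the fibroblast culture against 4.6 and 3.9 in GREL cells. The fibroblasts were 2.14-fold and 3.48-fold higher, all 3 values being under the lower background level (difference -1.45, limma SE 0.49, adjusted p = 0.324).

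**Figure D2:**
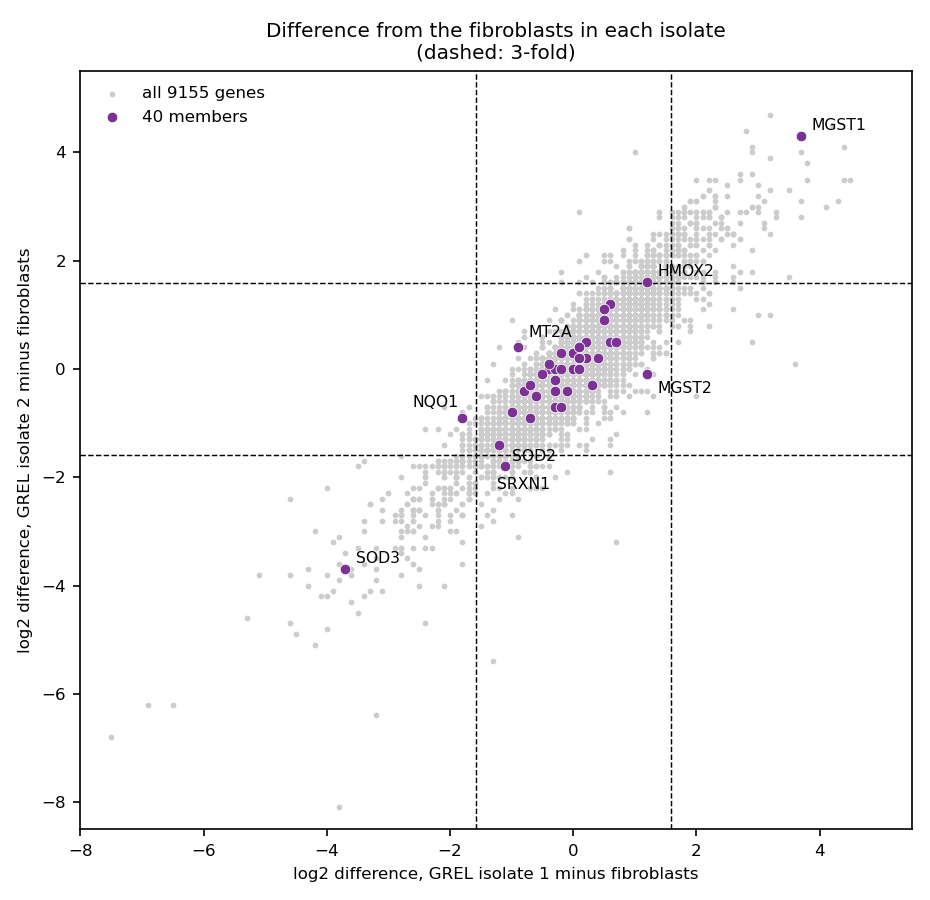
Log2 difference from the fibroblasts in GREL isolate 1 (horizontal axis) and in GREL isolate 2 (vertical axis) for all 9155 genes (small points) and the 40 genes of the set (large points), with 3-fold as dashed lines. MGST1 (3.7 and 4.3) and SOD3 (-3.7 in both) lie beyond 3-fold in both isolates, while MGST2 (1.2 and -0.1) and MT2A (-0.9 and 0.4) lie on opposite sides of 0 in the 2 isolates.

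Thioredoxin and its reductase differed in pattern. TXN, the cytosolic disulfide reductant, was at 10.8 on all 3 arrays. TXNRD1, which reduces thioredoxin with NADPH, had 8.4 in the fibroblast culture, with 9.1 and 8.9 in the GREL pair, higher in both (difference 0.60, limma SE 0.14, adjusted p = 0.282). TXN2, the mitochondrial thioredoxin, showed 6.6 in adult fibroblasts versus 6.2 and 6.7 in GREL cells, which lay on either side of it.

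Of the glutathione enzymes, GSR, which regenerates reduced glutathione, read 5.9 in the fibroblast culture against 6.4 and 6.8 in GREL cells. Its difference of 0.70 (limma SE 0.28 and adjusted p = 0.369) was larger than the isolate gap of 0.4, and the fibroblast value lay just under the lower background level. GCLM, the modifier subunit of glutamate-cysteine ligase, had 4.9 in the fibroblast culture, with 5.0 and 5.1 in the GREL pair. GCLC, the catalytic subunit of the same rate-limiting enzyme, showed 2.1 in adult fibroblasts versus 2.4 and 1.8 in GREL cells, and GSS, glutathione synthetase, read 3.1 against 2.9 and 3.4. The isolates lay on either side of the fibroblasts in GCLC and GSS, and the 3 synthesis genes lay under the lower background level on every array.

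The glutathione transferases held the gene with the widest difference of the set. MGST1, a membrane-bound glutathione transferase and peroxidase of the endoplasmic reticulum and outer mitochondrial membrane, read 2.6 in the fibroblast culture against 6.3 and 6.9 in GREL cells. The difference of 4.0 (13-fold in isolate 1 and 19.7-fold in isolate 2, limma SE 0.42 and adjusted p = 0.200) was several times the isolate gap of 0.6. The fibroblast value lay near the median of the genes of other organs (2.3), so that the fold is taken against a value at background and is uncertain. Both isolates exceeded the lower background level and neither exceeded the background level. MGST1 was read by a lone probe set.

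The related membrane enzymes MGST2 and MGST3 were not higher in both isolates. MGST2, which can also conjugate leukotriene A4, read 3.9 in the fibroblast culture against 5.1 in isolate 1 but 3.8 in isolate 2. The isolates lay 1.3 apart, and a gap at least this wide occurred in 108 of the 9155 genes. MGST3 had 7.7 in the fibroblast culture, with 7.8 and 7.7 in the GREL pair. PTGES, prostaglandin E synthase, which belongs to the same family of membrane enzymes and stood in the list on glutathione supply, showed 5.4 in adult fibroblasts versus 3.3 and 3.2 in GREL cells, lower by over 3-fold and under the lower background level on every array.

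Of the soluble transferases, GSTM3, a mu class enzyme, read 5.9 in the fibroblast culture against 6.5 and 7.1 in GREL cells (difference 0.90, limma SE 0.42, adjusted p = 0.392). GSTO1, an omega class enzyme, had 6.7 in the fibroblast culture, with 7.2 and 7.8 in the GREL pair (difference 0.80, limma SE 0.42, adjusted p = 0.412). Both isolates were higher than the fibroblasts in both genes, and isolate 2 was over 2-fold higher. The fibroblast value of GSTM3 lay just under the lower background level. GSTA4, an alpha class enzyme that conjugates the lipid aldehyde hydroxynonenal, showed 7.0 in adult fibroblasts versus 6.5 and 6.9 in GREL cells. GSTK1, a kappa class enzyme of mitochondria and peroxisomes, read 7.0 in the fibroblast culture against 6.4 and 6.5 in GREL cells, lower in both by a mean of 0.55 on the log2 scale (limma SE 0.07, adjusted p = 0.200).

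Haem oxygenases degrade haem to biliverdin, carbon monoxide and iron. HMOX2, the constitutive form, had 3.6 in the fibroblast culture, with 4.8 and 5.2 in the GREL pair, a difference of 1.40 (limma SE 0.28 and adjusted p = 0.261), with all 3 values under the lower background level. HMOX1, the inducible form, showed 6.8 in adult fibroblasts versus 6.1 and 6.5 in GREL cells. Both isolates were lower in HMOX1 and higher in HMOX2 than the fibroblasts. BLVRB, a biliverdin and flavin reductase, read 7.5 in the fibroblast culture against 7.4 and 7.1 in GREL cells. NQO1, a quinone reductase, had 5.9 in the fibroblast culture, with 4.1 and 5.0 in the GREL pair. The fibroblasts were 3.48-fold higher than isolate 1 but 1.87-fold higher than isolate 2 (difference -1.35, limma SE 0.63, adjusted p = 0.392), and the values lay under the lower background level.

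The 3 regulators of the pathway each differed by 0.50 or less. NFE2L2, encoding NRF2, showed 8.1 in adult fibroblasts versus 7.8 and 7.4 in GREL cells (difference -0.50, limma SE 0.28, adjusted p = 0.437). KEAP1, its inhibitor, read 6.7 in the fibroblast culture against 6.8 and 7.1 in GREL cells. SQSTM1, the autophagy adaptor p62 that can sequester KEAP1, had 8.9 in the fibroblast culture, with 8.7 and 8.2 in the GREL pair. At the brightest probe set of each gene, both isolates lay below the fibroblasts in NFE2L2 and SQSTM1 and above them in KEAP1.

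Iron storage was close between the cultures. FTH1, the ferritin heavy chain with ferroxidase activity, showed 11.7 in adult fibroblasts versus 11.5 and 11.7 in GREL cells. FTL, the light chain, read 11 in the fibroblast culture against 10.7 and 10.8 in GREL cells. The metallothioneins, small cysteine-rich proteins that bind zinc and copper, were less even. MT2A read 7.9 in the fibroblast culture against 7.0 in isolate 1 but 8.3 in isolate 2, so that the isolates lay 1.3 apart and on either side of the fibroblasts. MT1A had 7.2 in the fibroblast culture, with 6.2 and 6.4 in the GREL pair, lower in both by a mean of 0.90 on the log2 scale (limma SE 0.14, adjusted p = 0.227). Metallothionein genes are near-identical copies, and probes of the 2 genes may share transcripts, so each value is uncertain as to its gene. MGST2 and MT2A were the only genes of the 40 whose isolates lay at least 1.0 apart, beside 2.99% of all genes.

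Of the 40 genes 8 were read by over 1 probe set, and 4 of these had probe sets that disagreed by over 1.0 in their difference. SOD3 was the only gene of the 8 with probe sets of opposite direction. PRDX3, a mitochondrial peroxiredoxin, showed 8.2 in adult fibroblasts versus 8.3 and 8.4 in GREL cells at its brighter probe set, a difference of 0.15. At its other probe set the fibroblasts had 5.3, under the lower background level, against 6.6 and 6.7, a difference of 1.35.

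PRDX6, a peroxiredoxin that also has phospholipase activity, read 9.2 in the fibroblast culture against 9.2 and 9.5 in GREL cells at its brightest probe set. A second had 7.4 in the fibroblast culture, with 8.0 and 8.5 in the GREL pair. The 2 dimmest, under the lower background level on every array, gave differences of 1.40 and 0.05. The probe set with the difference of 1.40 is of a type (suffix s) whose probes may also match other genes. The 3 probe sets of GSTK1 all read lower in both isolates, the dimmer ones under the lower background level on every array. The differences of the 3 were -0.55, -0.80 and -1.60 from the brightest to the dimmest. The probe sets of KEAP1 differed by at most 0.05 in their mean difference. The dimmer probe sets of GPX1, NFE2L2 and SQSTM1 gave differences of -0.15, -0.05 and -0.05, all under the lower background level. At that of NFE2L2 the isolates lay on either side of the fibroblasts.

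**Figure D3:**
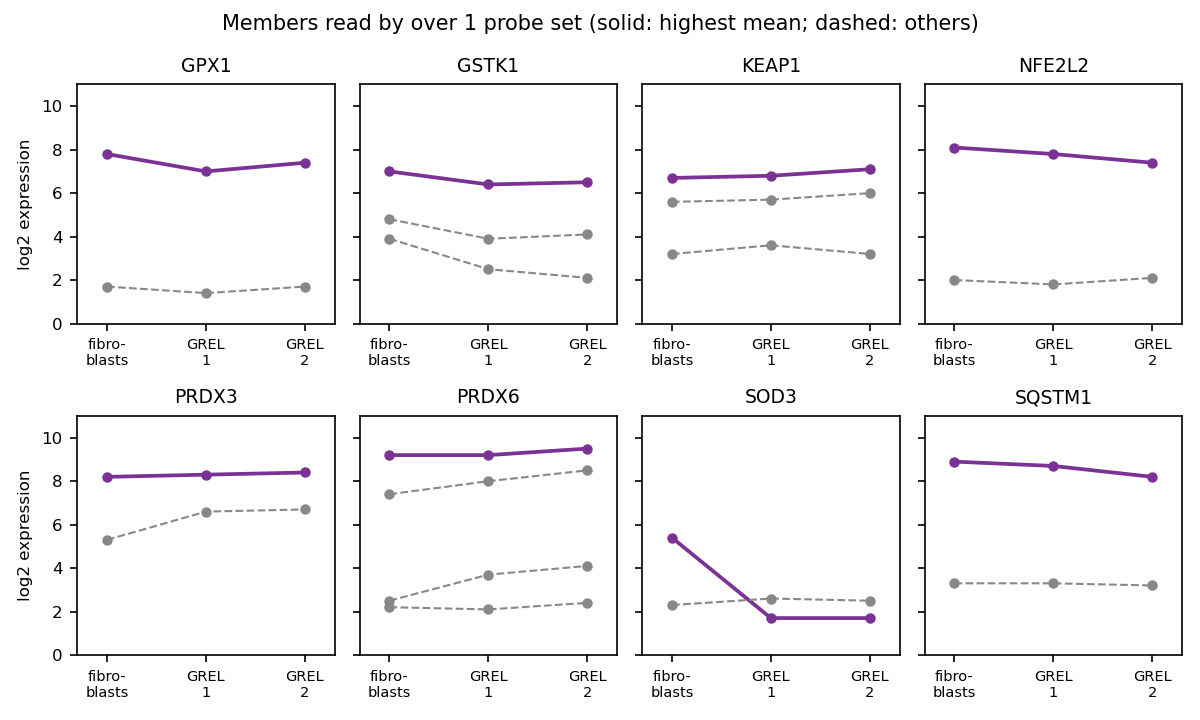
Log2 expression (vertical axis) in the fibroblasts and GREL isolates 1 and 2 (horizontal axis) for each probe set of the 8 genes read by over 1 probe set, with the probe set of highest mean as a solid line and the others dashed. In SOD3 the solid line drops from 5.4 to 1.7 while the dashed line stays between 2.3 and 2.6, and in PRDX3 the dashed line is higher in both isolates.

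Neighbouring genes of these pathways were taken as 6 further lists. Of 20 measured genes of the NRF2 pathway and of NADPH supply, 0 were over 3-fold higher and 1 over 3-fold lower in both isolates. Their median difference was 0, beside 0.05 for all genes. SESN1, a sestrin, showed 5.3 in adult fibroblasts versus 2.5 and 3.3 in GREL cells. Its 2 dimmer probe sets differed by -0.35 and -0.60, and all values lay under the lower background level. AKR1B1, aldose reductase, read 6.3 in the fibroblast culture against 7.8 and 7.9 in GREL cells, 2.83-fold and 3.03-fold higher (difference 1.55, adjusted p = 0.182 in limma). IDH1, a cytosolic source of NADPH, had 5.8 in the fibroblast culture, with 7.1 and 7.0 in the GREL pair, and its 2 other probe sets gave differences of 1.10 and 1.00. ABHD4, a lipid hydrolase, showed 6.6 in adult fibroblasts versus 5.6 and 5.2 in GREL cells. Both isolates lay under the lower background level in ABHD4, as did the fibroblasts in IDH1.

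Of 28 other thioredoxin, selenoprotein and peroxide enzymes, 0 were over 3-fold higher and 1 was over 3-fold lower in both isolates. SELENOP, a secreted selenium carrier, read 7.6 in the fibroblast culture against 5.9 and 5.3 in GREL cells (difference -2.0, adjusted p = 0.261 in limma). MSRB2, a mitochondrial methionine sulfoxide reductase, had 5.0 in the fibroblast culture, with 3.5 and 3.2 in the GREL pair. MSRB2 lay under the lower background level on every array, and SELENOP lay above it in the fibroblasts alone. TXNDC17, a thioredoxin-like protein, showed 6.8 in adult fibroblasts versus 7.8 and 8.2 in GREL cells. GLRX3, a glutaredoxin of iron-sulfur metabolism, read 6.2 in the fibroblast culture against 7.1 and 7.5 in GREL cells, and a dim second probe set showed a difference of -0.05. The median difference of the list was 0.025.

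Of 21 genes of glutathione supply and export, 0 were over 3-fold higher and 1, PTGES, was over 3-fold lower, and the median difference was -0.15. ANPEP, an aminopeptidase that also splits the cysteinylglycine released from glutathione, had 2.3 in the fibroblast culture, with 4.0 and 3.4 in the GREL pair. CHAC1, which degrades glutathione, showed 5.2 in adult fibroblasts versus 4.2 and 3.6 in GREL cells. GGCT, of the same gamma-glutamyl cycle, read 2.8 in the fibroblast culture against 3.5 and 4.2 in GREL cells. These 3 genes lay under the lower background level on every array.

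Of 29 genes of iron and haem handling, 1 was over 3-fold higher and 2 over 3-fold lower in both isolates, with a median difference of 0.05. TF, transferrin, the iron carrier of serum, had 4.2 in the fibroblast culture, with 7.1 and 6.0 in the GREL pair (difference 2.35, adjusted p = 0.313 in limma). STEAP2, a metalloreductase, showed 8.4 in adult fibroblasts versus 6.3 and 6.1 in GREL cells (difference -2.20, adjusted p = 0.182 in limma). SLC39A8, a carrier of zinc, iron and manganese, read 5.4 in the fibroblast culture against 2.6 and 3.8 in GREL cells, under the lower background level on every array. TF lay under that level in the fibroblasts and above it in both isolates, with isolate 2 only just above. Its isolates were 1.1 apart, so its fold is uncertain.

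Of 19 genes of zinc and copper handling, 0 were over 3-fold higher and 0 over 3-fold lower, and the median difference was -0.05. The zinc importer SLC39A6 had 7.2 in the fibroblast culture, with 8.1 and 8.4 in the GREL pair, with a difference of 1.00 at its second probe set. Of 23 producers of reactive oxygen, 0 were over 3-fold higher and 3 over 3-fold lower, and the median difference was -0.25. XDH, xanthine dehydrogenase, showed 7.2 in adult fibroblasts versus 4.8 and 3.9 in GREL cells (difference -2.85, adjusted p = 0.270 in limma), and its second probe set gave -2.70. NCF4, a subunit of the phagocyte oxidase, read 5.0 in the fibroblast culture against 3.0 and 2.8 in GREL cells. PTGS2, the inducible cyclooxygenase, had 5.0 in the fibroblast culture, with 3.1 and 2.9 in the GREL pair, and its 2 dimmer probe sets differed by -0.55 and -0.30. NCF4 and PTGS2 lay under the lower background level on every array, and XDH lay above it in the fibroblasts alone.

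No gene of the 6 lists passed limma. Their counts over 3-fold are read against 2.38% of all genes in each direction, and with 19 to 29 genes a list, 1 gene alone exceeds that share.

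**Figure D4:**
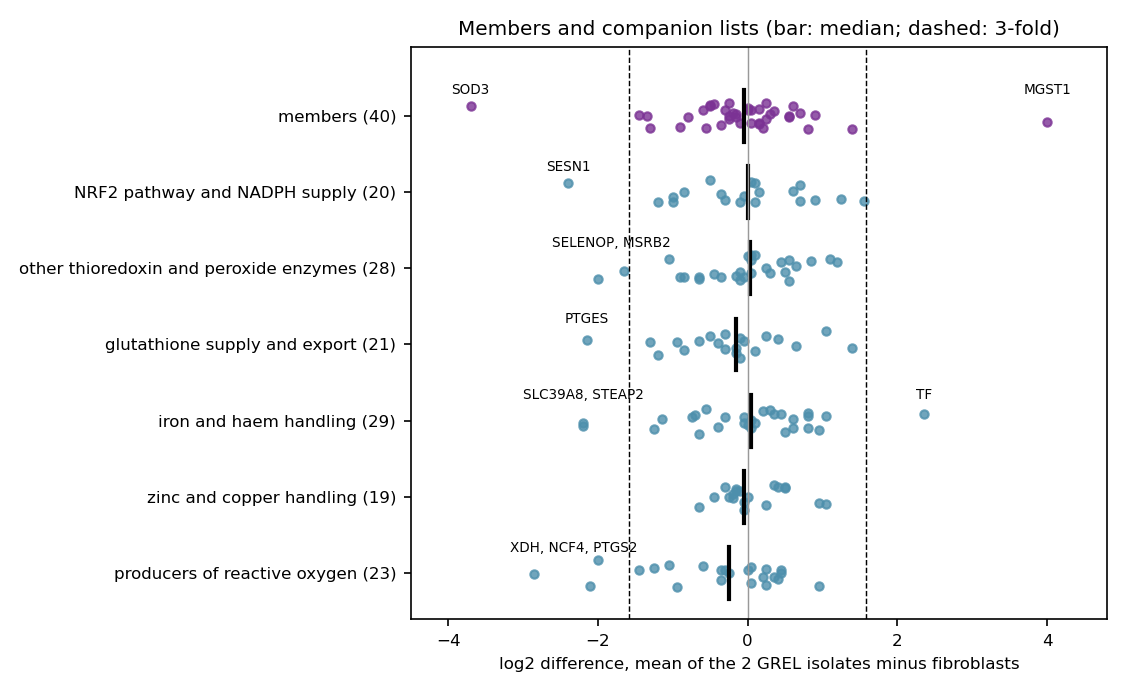
Mean GREL value minus fibroblast value in log2 units (horizontal axis), with a point for every measured gene of the antioxidant set and of 6 companion lists, the gene number standing in brackets, medians as vertical bars and 3-fold as dashed lines. The medians lie between -0.25 (producers of reactive oxygen) and 0.05 (iron and haem handling), and names mark genes whose mean difference exceeds 3-fold.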

How the data were processed

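The authors deposited log2 values from 3 arrays (2 GREL isolates, 1 fibroblast culture), made by RMA background subtraction, quantile normalization and log2 transformation in Partek, given as version 6.5 by the submitters' notes, rounded to steps of 0.1. Each value column belongs to a labelled sample. Leaving out 112 controls of 24128 probe sets kept 24016. Of these, 13292 had 1 symbol in the platform annotation, 86 had several and 10638 were unnamed here. The gene ID of 13263 was in the current bovine table, with 0 symbols differing. No build is named, so no coordinates are given, and no sequences are shown.

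GREL cells were compared with fibroblasts over all probe sets with limma 3.58.1 in R 4.3.3 (lmFit, eBayes, Benjamini-Hochberg), with 1 residual degree of freedom. The fibroblast culture was assumed to vary like the isolates. Rounding gave the isolates identical values in 3513 probe sets (SOD3, CAT and TXN among them), so their spread is understated. Nothing says that a culture's value would repeat, so p-values measure the spread between 2 cultures only. The fit was tested on simulated data. Counts past a fold needed both isolates over 3-fold, or at least 2-fold. Python 3.11.15 with pandas 2.3.3 and numpy 2.4.6 did the rest. The array number limits the precision.

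The members and all lists were chosen with earlier results of these data known. Genes of the set were named with values if at least 2-fold apart in both isolates, if their isolates lay at least 1.0 apart or their probe sets disagreed, and for each role. Companion genes were named if over 3-fold in both isolates, or as up to 2 highest and 2 lowest of a list. Other settings were an intensity trend, a robust prior, the methods' test, leaving out dim probe sets, a second quantile normalization, centring on the median, the mean over probe sets, the 90th percentile as background, and leaving out either isolate.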

Additional observations from a re-analysis of the deposited data

How the results depend on the processing

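The 2-fold and 3-fold counts of the set held under quantile normalization applied again, centring on the median and the mean over probe sets, and its median difference stayed between -0.15 and 0 under every setting run. Restricted to probe sets above the background level on at least 1 array, which leaves fewer genes, the set had 0 genes over 3-fold higher, 0 over 3-fold lower, 0 at least 2-fold higher and 1 at least 2-fold lower (SOD2), and all genes gave 55, 53, 152 and 103 in the same order. Without isolate 1 or isolate 2 in turn, the set had 1 to 2 genes over 3-fold higher and 2 over 3-fold lower (HMOX2 and SRXN1 joining without isolate 1, NQO1 without isolate 2), 3 to 4 at least 2-fold higher and 3 to 5 at least 2-fold lower. Among all genes these counts were 263 to 431, 251 to 331, 787 to 1149 and 642 to 756. Limma called 0 probe sets with an intensity trend, after centring and with the filter on dim probe sets, and the methods' test also called 0, with 20503 probe sets of unequal isolates given a p (186 higher and 208 lower at an unadjusted p under 0.05). With a robust prior it called 571 higher and 618 lower, among them 0 genes of the set higher and 1 lower (SOD3). After quantile normalization applied again, it called 1608 higher and 1547 lower, among them 2 genes of the set higher (MGST1 and HMOX2) and 5 lower (SOD2, SOD3, NQO1, MT1A and SRXN1). The cause of these changes in calls was not tested. With the 90th percentile as background, 27 genes of the set exceeded it in fibroblasts, 29 in isolate 1 and 30 in isolate 2, against 14, 16 and 20 with the 95th. Of all 9155 genes, 2606, 2469 and 2821 exceeded the 90th percentile on the same arrays, and 686, 1049 and 1260 the 95th. The difference of TXN2, MGST2 and MT2A changed sign without isolate 1, that of GSS without isolate 2 and that of MGST3 after the second quantile normalization. Of the companion lists, the other thioredoxin and peroxide enzymes had 2 genes over 3-fold lower after that normalization, after centring and without isolate 1, against 1 as reported. The NRF2 list had 0 lower with the mean over probe sets, against 1. The glutathione list had 2 lower without isolate 1 and, in turn, without isolate 2, against 1, and 1 higher without isolate 2, against 0. The NRF2 list and the producers of reactive oxygen each had 1 higher without isolate 1, against 0. No paired analysis was possible because the fibroblasts were 1 culture and no label pairs it with either GREL isolate. The fibroblasts' own spread was not measured.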

Other observations

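In 2 of the companion lists the isolates themselves differed often. Of the 23 producers of reactive oxygen 4 had isolates at least 1.0 apart, and so did 4 of the 21 genes of glutathione supply and export, beside 2.99% of all genes. AOX1, aldehyde oxidase, read 6.5 (log2) in the fibroblast culture against 7.2 in isolate 1 but 3.3 in isolate 2. SLC1A5, a glutamine carrier, read 6.3 there, 7.6 in isolate 1 and 5.8 in isolate 2. CYBA, a subunit of NADPH oxidases, was at 5.7, 4.4 and 5.8 in the same order. CYBA lay under the lower background level on every array, and AOX1 and SLC1A5 lay under it in isolate 2, so the size of these gaps is uncertain. These 3 genes were chosen after their values were seen, and no test was run on the gap between 2 arrays.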
